A study of Mus musculus with 60 samples.

Results

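Collagens were followed here through 82 probe sets for 42 genes on the Affymetrix Mouse Genome 430 2.0 array, of 34945 probe sets with 1 gene symbol for 18193 genes. A probe set is a group of short oligonucleotides that reads 1 transcript. A gene was taken as a collagen when its symbol in the platform annotation was Col, a type number, the letter a and a chain number, and no measured value entered that choice. The genes were divided into 11 that form fibrils (fibrillar), 8 of basement membranes and 23 others. The arrays held RNA from neocortex, gastrocnemius muscle or heart of male B6C3F1 hybrid mice, first-generation crosses of C57BL/6 and C3H/He, with 5 arrays for each tissue and group and 1 mouse per array. Young controls were 5 months old and ate the AIN93M control diet. Old controls (30 months) ate the control diet throughout, old CR mice a diet labelled as 40% calorie restricted from 14 months of age, and old resveratrol mice the control diet with 4.9 mg of resveratrol per kg body weight per day from 14 months of age. The weekly rations in the study's methods differ between CR and control mice by less than that label states. All mice were housed singly, and by the study's methods the controls also received a fixed weekly ration somewhat below free intake. The age comparison asks what differs between old and young controls, and the diet comparisons ask what either diet changes at old age.

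A collagen is built from 3 chains that wind into a triple helix inside the endoplasmic reticulum, and it is then secreted, trimmed and cross-linked in the extracellular matrix. Fibrillar collagens give tissue its tensile strength, and in heart and muscle most of them are made by fibroblasts between the muscle fibres. Type IV collagens form the sheet-like network under endothelium and around muscle fibres, types XV and XVIII link that sheet to the matrix around it, and the remaining types coat fibrils, form microfilaments or span the cell membrane. In brain, collagen is largely limited to vessel walls and meninges, although several transmembrane and fibril-associated types are made by neurons. The RNA came from whole pieces of tissue, where fewer cells of a type and less RNA per cell cannot be told apart.

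Signals were linear values, scaled to the same trimmed mean on every array, and changes are differences of log2 signal. A gene was tested in a tissue when the mean of its representative probe set, the brightest of the gene over all 60 arrays, reached the 40th percentile of probe sets (a signal of 60.4 in heart, 69.3 in muscle and 57.3 in neocortex). It was called when limma's p value, adjusted by Benjamini and Hochberg over all tested genes of that tissue and comparison, was under 0.05, and only such genes are said to have risen or fallen. Signals of different genes come from different probes and are not compared. This left 31 collagen genes in heart (8 fibrillar, 7 basement membrane, 16 other), 33 in muscle (10, 8 and 15) and 33 in neocortex (9, 6 and 18), with 25 genes tested in all 3 tissues, 9 in 2 and 4 in 1. Col10a1, Col17a1, Col2a1 and Col6a5 passed in none. Precision is limited by the 5 arrays per group, and each p value sets a difference against limma's estimate of the spread between mice of a group.

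The tissue labels fit the signals of defining genes. Summed cardiomyocyte markers lay between 210335 and 362878 in the 20 heart arrays and at 2998 or less on every other array, and summed neuron markers lay between 60343 and 73638 in neocortex and at 870 or less elsewhere. Before the results, 4 arrays stand apart in RNA quality or in distance from their group: heart young control replicate 1, heart old control replicate 4, muscle young control replicate 4 and muscle old control replicate 1. The log2 difference between 3′ and 5′ probe sets of actin, which widens when RNA is degraded, was 1.39 ± 0.16 (SD, n = 5) in old control hearts and 0.72 to 0.82 on average in the other heart groups, with no overlap. In neocortex it was 0.55 in old controls, 0.71 in CR and 0.89 in resveratrol mice, and every diet array lay above every old control array. In muscle the actin difference overlapped between old controls and either diet, but that of Gapdh did not. It ran from -0.218 to 3.23 in old controls, -0.297 to -0.235 in CR and -0.301 to -0.232 in resveratrol muscles. Every diet array there lay below every old control array. The part of these differences in the collagen results was not tested.

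In young controls the 3 tissues had different collagens. Of the 38 collagen genes tested in some tissue, 16 were brightest in heart, 12 in muscle and 10 in neocortex, but in only 6, 2 and 6 of them did every array of that tissue lie above every array of the next. Heart stood highest without overlap for the type IV chains Col4a1 (7931 ± 976 in heart, 2867 ± 1035 in muscle and 1289 ± 166 in neocortex, mean ± SD, n = 5), Col4a2 (4166 ± 520.4, 1548 ± 169 and 844 ± 134) and Col4a5 (1328 ± 155, 262 ± 68.6 and 159 ± 15.7). It did so as well for Col15a1, a basement membrane zone collagen, for Col5a1, a chain that sets fibril diameter, and for Col8a1, a short-chain network collagen of vessel walls. Of these genes, 4 belong to the basement membrane class. In muscle the 2 genes were Col7a1, the anchoring fibril collagen, and Col9a1. The fibrillar chains Col1a1 (1418 ± 407 in heart and 1649 ± 231 in muscle), Col1a2 (4204 ± 786 and 5057 ± 848) and Col3a1 (8389 ± 1237 and 6602 ± 1992) overlapped between heart and muscle.

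Neocortex held little of the major fibrillar chains, with signals of 19.8 ± 14.5 for Col1a1, below the limit for testing, and 88.6 ± 25.0 for Col3a1. Its 6 clear genes were Col11a1, Col19a1, Col25a1, Col26a1, Col9a2 and Col9a3. Col25a1, a transmembrane collagen of neurons, reached 689.8 ± 161 there, against 59.0 ± 41.3 in heart and 9.09 ± 3.61 in muscle. Col19a1, a fibril-associated collagen made by some interneurons, reached 899.6 ± 79.9, against 135 ± 40.3 in muscle and 33.3 ± 19.7 in heart, and the heart mean lay below the limit for testing.

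Collagen signals in heart were lower at old age. Of 31 genes tested, 7 fell and 1 rose, 8 in all, beside 10.8% of all genes called in this comparison (3.79% lower and 7.05% higher). The median log2 change was -0.44 over the collagen genes and 0.03 over all genes, and 23 of the 31 lay below 0. The 7 falls are 22.6% of the collagens. They came from each class: 3 of 8 fibrillar genes (median -0.52), 1 of 7 basement membrane genes (median -0.54) and 3 of 16 others (median -0.35), and the 1 gene that rose was among the others.

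The 250 bases before the annotated starts of Col1a2 (type I) and Col3a1 (type III) are shown because these are the fibril chains with the largest called falls in heart with age, and both belong to fibrils of the same tissue. The letters were read from RefSeq on GRCm38.p6, and capitals mark 3 motifs that were searched for on both strands. The first is the box that transcription factor NF-Y is known to bind, spelled CCAAT. The second is a GC box, bound by Sp1 and related factors, which is spelled GGGCGG here. The last is the box close to the start of many genes, with the spelling TATAAA, and none of these 3 overlaps another.
Col1a2, chr6:4505368-4505617, plus strand: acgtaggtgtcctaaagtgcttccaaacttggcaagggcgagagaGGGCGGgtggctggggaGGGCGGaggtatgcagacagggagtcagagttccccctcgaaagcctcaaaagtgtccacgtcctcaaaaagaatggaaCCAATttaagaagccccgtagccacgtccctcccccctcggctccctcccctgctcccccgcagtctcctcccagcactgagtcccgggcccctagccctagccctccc
Col3a1, chr1:45311288-45311537, plus strand: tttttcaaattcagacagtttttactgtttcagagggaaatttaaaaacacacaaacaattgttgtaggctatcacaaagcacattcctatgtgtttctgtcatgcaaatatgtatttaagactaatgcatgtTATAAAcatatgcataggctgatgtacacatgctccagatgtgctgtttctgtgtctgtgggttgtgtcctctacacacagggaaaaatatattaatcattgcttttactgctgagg
The Col1a2 stretch holds the first box 109 bases before the start and GC boxes 205 and 188 bases before it, and it is 62% G and C. The Col3a1 stretch holds the TATA box 117 bases before the start, none of the other motifs, and 35.2% G and C. Of 32851 promoter windows in RefSeq, 33.8% hold the first box, 32.7% the GC box and 12.4% the TATA box. Of the 36 windows that belong to 33 of the 42 collagen genes, 36.1%, 58.3% and 13.9% hold them. These are matches of letters, not shown binding sites.

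Col3a1, the chain of type III collagen in stretchy tissues, had signals, in order of replicate number, of 6651, 8411, 8201, 8550.1 and 10132 in the 5 young hearts and 4089, 3796, 4996, 2651 and 5010.4 in the old control hearts. Every old heart lay below every young heart. The log2 change was -1.05 ± 0.16 (SE, adjusted p = 0.000105), the largest fall among the called collagens, from 8389 ± 1237 to 4109 ± 978 (mean ± SD, n = 5). Col1a2, the second chain of type I collagen, gave 2941, 4531, 4147, 4329 and 5071 in young and 2469.7, 2080.2, 3062, 1457 and 3006 in old control hearts. The lowest young array, replicate 1, lay below 2 of the old arrays, so the groups overlapped, and the log2 change was -0.83 ± 0.17 (SE, adjusted p = 0.00200). Col5a2, which is built into type I fibrils, gave 1127, 1482, 1395, 1627 and 1449.7 in young and 821, 615, 1011, 611 and 1091 in old control hearts. These groups did not overlap, and the change was -0.80 ± 0.16 (SE, adjusted p = 0.00188). Col1a1, the partner of Col1a2, is the fibrillar gene with the lowest fitted value, -1.48 (adjusted p = 0.0798), which did not pass. Its old controls ran from 83.4 to 1134 and its young controls from 801 to 1887, with the lowest value on the outlying replicate 4. Col5a1, at -0.22 (adjusted p = 0.449), did not pass either.

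**Figure D1:**
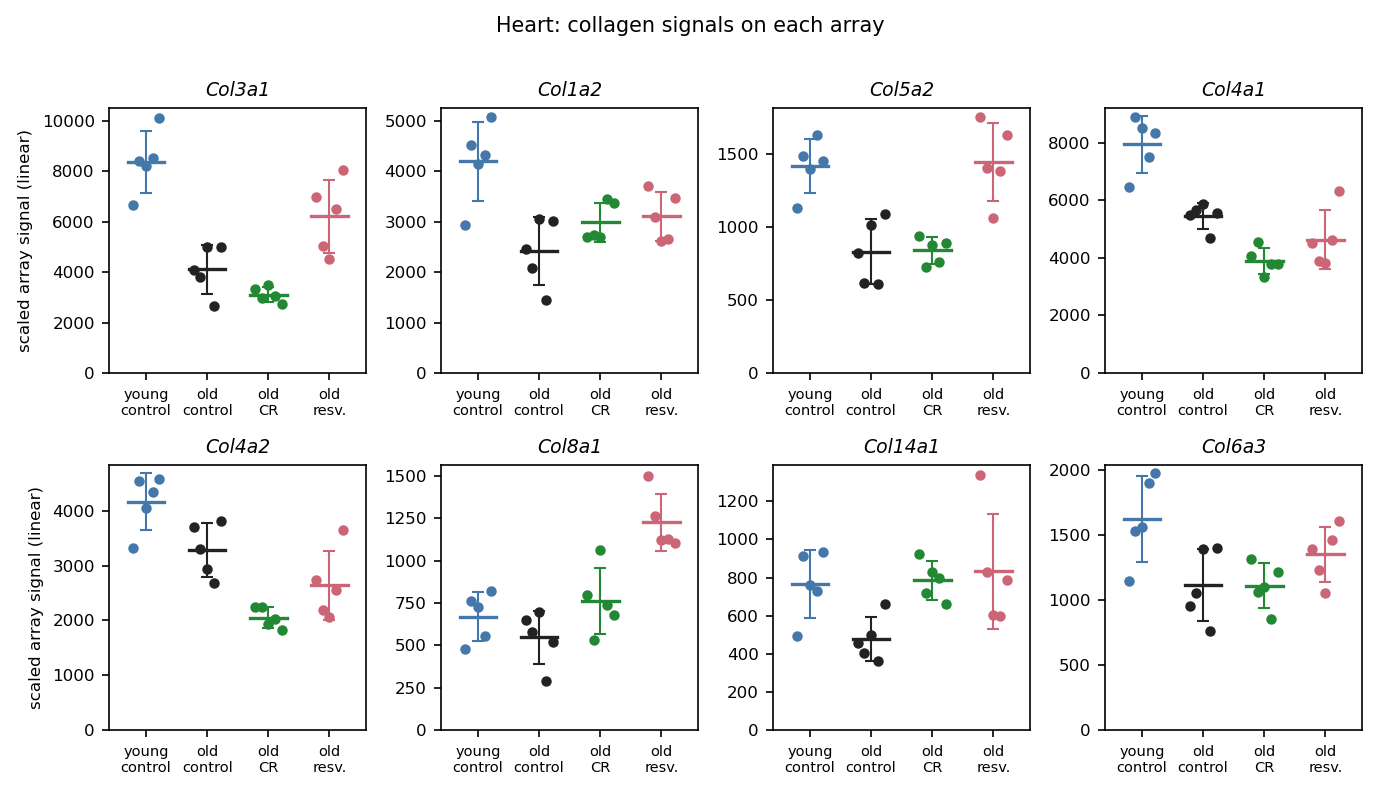
Signal (linear, vertical axis) of 8 collagen genes in heart, with each point 1 array (5 per group), the line the group mean and the bar its SD, over the young controls and the 3 old groups (resv. for resveratrol). Col3a1 averages 8389 in young and 4109 in old controls, and Col4a2 is lowest in CR hearts at 2051.

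In the basement membrane class Col4a1, the main chain of vascular type IV collagen, gave 6444, 8885, 8502, 7486 and 8337 in young and 5484, 5662, 5855, 4691 and 5541 in old control hearts. Every old heart was lower, and the change was -0.54 ± 0.12 (SE, adjusted p = 0.00456). Col4a2, which joins 2 Col4a1 chains in the same helix, had 4166 ± 520.4 in young and 3288 ± 490.4 in old control hearts, and its change of -0.34 (adjusted p = 0.0982) did not pass. The multiplexins Col15a1 at -0.48 (adjusted p = 0.247) and Col18a1, the source of endostatin, at -0.65 (adjusted p = 0.0668) did not pass. Of the 3 chains of type VI, which forms microfilaments around cells, Col6a2 fell from 2360.0 ± 397 to 1657 ± 421 (-0.54, adjusted p = 0.0311) and Col6a3 fell from 1624 ± 331 to 1114 ± 278 (-0.56, adjusted p = 0.0349), while Col6a1 was at -0.21 (adjusted p = 0.479). Col14a1, a collagen on the surface of type I fibrils, gave 495, 915, 762, 728 and 934 in young and 457, 403, 496, 361 and 661 in old control hearts. The groups overlapped, and the gene fell by 0.69 (adjusted p = 0.0318). Col12a1, another fibril coat collagen, rose from 27.5 ± 29.1 to 86.0 ± 24.0 (2.06, adjusted p = 0.0420), but its young mean lay below the limit of 60.4 for testing and a brighter probe set of Col12a1 in heart gave 0.81 and was not called.

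The 3 falls without overlap, Col3a1, Col5a2 and Col4a1, were 3 of 31 collagens beside 3.03% of all genes. The count of 8 was 4 without young control replicate 5, and 5 without young control replicate 2, 3 or 4 or old control replicate 1, 2 or 4. Col3a1, Col1a2, Col5a2 and Col4a1 passed whichever array was left out. The rise of Col12a1 ended without any 1 of 11 of the 20 heart arrays (adjusted p up to 0.0899), the fall of Col6a3 without any 1 of 7 (up to 0.117), that of Col14a1 without any 1 of 6 (up to 0.0912) and that of Col6a2 without any 1 of 5 (up to 0.108), and old control replicate 4 was among these arrays for each gene. Without both outlying heart arrays Col12a1 and Col6a2 were not called, and Col4a6 (-1.89, adjusted p = 0.0110) and Col16a1 (-1.02, adjusted p = 0.0416) fell. A second probe set of Col3a1 gave -1.43 and one of Col1a2 -0.78, both called among all probe sets. The third probe set of Col1a2 was too dim to be tested in heart (mean signal 42.9), and with the mean of all its probe sets Col1a2 gave -0.17 (adjusted p = 0.811) and was not called. The calls of Col14a1 (-0.48, adjusted p = 0.292) and Col6a2 (-0.43, adjusted p = 0.137) were lost with that mean as well.

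Both diets were compared with the same 5 old control hearts, so their changes share that reference and are given side by side. With CR 2 collagen genes fell and 1 rose of 31, or 3 in all, beside 22.0% of all genes called (14.1% lower and 7.94% higher), and the 3 are 9.68% of the collagens, below that share. With resveratrol 4 rose and none fell, beside 17.5% of all genes (7.08% higher and 10.5% lower), and those 4 are 12.9% of the collagens. The median log2 change was 0.46 with CR and 0.28 with resveratrol, against 0.00 and 0.01 over all genes. These medians rest mostly on genes that did not pass singly: with CR 15 of 16 genes of the other class lay above 0 (median 0.57), while the fibrillar median was 0.04 and the basement membrane median -0.22. With resveratrol the medians were 0.34 for fibrillar, -0.12 for basement membrane and 0.29 for other genes.

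The type IV pair fell with CR. Col4a2 gave 3711, 3303, 2932, 2676 and 3819 in old control hearts and 2243, 2236, 1927, 2027 and 1819.6 in CR hearts. Every CR array was lower than every control array, and the change was -0.67 ± 0.13 (SE, adjusted p = 0.000607). Col4a1 gave 4062, 4548, 3329, 3766 and 3765 in CR hearts, again below all old controls, with a change of -0.49 ± 0.12 (SE, adjusted p = 0.00447). In resveratrol hearts Col4a2 was 2639 ± 626 (-0.33, adjusted p = 0.0872) and Col4a1 4622 ± 1022 (-0.26, adjusted p = 0.150), and neither passed. With the mean of all probe sets the CR value of Col4a1 was -0.42 (adjusted p = 0.0746). The direct difference between the diets passed for neither gene, at -0.34 (adjusted p = 0.172) for Col4a2 and -0.23 (adjusted p = 0.334) for Col4a1. Both genes were below the old controls in CR hearts, and Col4a1 was below the young controls in old controls already. With CR the groups did not overlap for Col4a1 and Col4a2, lower, beside 12.2% of all genes, and for Col9a1, higher (1.57, adjusted p = 0.0659, not called), beside 6.82%.

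Of the 8 fibrillar genes tested in heart, Col3a1 and Col5a2 differed between the 2 diets. Col3a1 gave 3338, 2964, 3475, 3036 and 2724 in CR and 6974, 5025, 4535, 6498 and 8072 in resveratrol hearts. The diets did not overlap, and CR against resveratrol differed by -0.97 ± 0.16 (SE, adjusted p = 0.000746). Against old controls, Col3a1 rose by 0.60 with resveratrol (adjusted p = 0.00837), with overlap, and CR gave -0.37 (adjusted p = 0.0938). Col5a2 gave 938, 723, 878, 761 and 891 in CR and 1754, 1400.3, 1058, 1384 and 1626 in resveratrol hearts. Again the diets did not overlap, with a difference of -0.77 ± 0.16 (SE, adjusted p = 0.00624), and Col5a2 rose by 0.82 with resveratrol (adjusted p = 0.000778), with 0.05 (adjusted p = 0.867) for CR. These were the 2 collagens called of 31 between the diets, beside 4.0% of all genes (2.57% lower in CR and 1.43% higher). A dimmer probe set of Col5a2 gave 1.03 with CR and 0.86 with resveratrol, both called among all probe sets, so the 2 probe sets disagree on CR, and with the mean of all its probe sets the difference of Col5a2 between the diets was -0.30 (adjusted p = 0.322) and not called.

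Col8a1 was highest in resveratrol hearts, with 1501, 1266, 1123, 1129 and 1105 against 649, 579, 695, 290.2 and 521 in old controls. The groups did not overlap, and the gene rose by 1.22 ± 0.21 (SE, adjusted p = 0.000200), the largest change of a called collagen with either diet in heart, while no overlap and a rise were seen in 5.75% of all genes. CR hearts lay at 761 ± 196 (0.50, adjusted p = 0.0859) and below every resveratrol heart, a difference of -0.71 (adjusted p = 0.0521) that did not pass. With Col3a1 and Col5a2 it makes 3 collagens lower in CR than in resveratrol hearts without overlap, beside 3.60% of all genes. A second probe set of Col8a1 gave 0.28 with resveratrol and did not pass, and with the mean of all its probe sets Col8a1 gave 0.54 (adjusted p = 0.241). Col14a1 rose with both diets, to 786 ± 102 with CR (0.75, adjusted p = 0.0101) and 833 ± 302 with resveratrol (0.77, adjusted p = 0.00922), from 476 ± 115 in old controls. Col1a2 (0.35, adjusted p = 0.141, with CR and 0.40, adjusted p = 0.104, with resveratrol), Col1a1 (-0.53, adjusted p = 0.520 and 0.39, adjusted p = 0.692) and Col5a1 (0.03, adjusted p = 0.913 and 0.29, adjusted p = 0.255) did not pass. Nor did Col15a1 (-0.34, adjusted p = 0.356 and -0.15, adjusted p = 0.743), Col18a1 (0.56, adjusted p = 0.0799 and 0.19, adjusted p = 0.628), Col6a1 (-0.42, adjusted p = 0.0751 and -0.25, adjusted p = 0.358), Col6a2 (0.03, adjusted p = 0.908 and 0.15, adjusted p = 0.587) or Col6a3 (0.02, adjusted p = 0.952 and 0.30, adjusted p = 0.248).

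The CR count in heart depends on the outlying arrays. Without young control replicate 1 it was 6, without old control replicate 4 it was 8, without CR replicate 3 it was 5, and without both outlying arrays it was 11, now 6 lower and 5 higher. Those 11 include falls of Col3a1 (-0.52, adjusted p = 0.00495), Col1a1 (-1.17, adjusted p = 0.0382), Col6a1 (-0.56, adjusted p = 0.0033) and Col15a1 (-0.62, adjusted p = 0.0308) and rises of Col4a6, Col13a1, Col16a1 and Col9a1. The resveratrol count was 7 without the outlying arrays, with Col4a2 (-0.41, adjusted p = 0.0225) and Col6a1 (-0.38, adjusted p = 0.0478) lower. Col8a1 between the diets then passed as well (adjusted p = 0.00523).

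Markers of several cell types were also called in heart, in directions that differed between lists. Of 10 tested fibroblast genes that are not collagens, 5 fell with age, and with CR and with resveratrol 5 rose each. Lum, a proteoglycan that binds collagen fibrils, changed by -1.14 with age, 1.51 with CR and 1.43 with resveratrol. The summed signal of the 10 genes ran from 70210 to 87902 in young, 49055 to 90538 in old control, 88786 to 97155 in CR and 76199 to 93121 in resveratrol hearts. Endothelial markers summed to 16290 to 21269 in old controls and 15007 to 15899 in CR hearts, without overlap, with 4 of 11 lower and 1 higher. With resveratrol 6 of 11 were called. With age 3 of 11 were called, Flt1 (0.83) and Cdh5 (0.77) higher and Emcn (-0.52) lower. Of 7 macrophage genes 1 rose with age, 6 with CR and 5 with resveratrol, with Cd163, a scavenger receptor, at 1.53 with CR and 0.88 with resveratrol. Their sums ran from 9560.0 to 13301 in old control, 15974 to 20046 in CR and 13874 to 20632 in resveratrol hearts, without overlap between controls and either diet. Of 6 genes of tendon and cartilage none was called with age, 3 rose with CR and 2 with resveratrol, and their sums of 1490.2 to 2066 in old control, 2584 to 2889 in CR and 2314 to 3587 in resveratrol hearts did not overlap either. Of 9 mural and smooth muscle genes 3 rose and 2 fell with CR and 2 rose and 2 fell with resveratrol, with sums that overlapped between the groups. Shares called with age, CR and resveratrol were 50%, 50% and 50% for fibroblast markers and 27.3%, 45.5% and 54.5% for endothelial markers. They were 14.3%, 85.7% and 71.4% for macrophage markers and 0%, 50% and 33.3% for tendon and cartilage markers. For mural and smooth muscle markers they were 33.3%, 55.6% and 44.4%, beside 10.8%, 22.0% and 17.5% of all genes. The part of these markers in the collagen results was not tested.

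In gastrocnemius muscle no collagen gene was called with age, beside 0.429% of all genes, and in 0 of 33 did the groups not overlap, beside 3.67%. In limma 4 of 33 had an unadjusted p under 0.05, and the methods' t-test gave 1 gene at a p of 0.01 or less. The median log2 change was 0.04, against 0.03 for all genes, and Col1a2 gave -0.53 (adjusted p = 0.347), Col3a1 0.08 (adjusted p = 0.940), Col1a1 -0.00 (adjusted p = 0.998), Col4a1 0.31 (adjusted p = 0.569) and Col4a2 0.15 (adjusted p = 0.786).

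Signals of both type I chains were called lower in CR muscle. Of 33 collagen genes 3 fell and 4 rose, beside 31.2% of all genes called (13.6% lower and 17.5% higher), and the 7 collagens are 21.2%, below that share. Col1a1, the main chain of type I, gave 1490.5, 1024, 3102, 1087 and 2248 in old control and 464, 65.8, 800.1, 680.2 and 578 in CR muscles. No CR array reached the lowest control, CR replicate 2 was far below the others, and the change was -2.05 ± 0.48 (SE, adjusted p = 0.00330). Col1a2 gave 3714, 2653, 5139, 2501 and 3898 in old control and 2027, 1533, 2876, 3045 and 1614 in CR muscles. These groups overlapped, and the gene fell by 0.70 (adjusted p = 0.0392). In resveratrol muscles Col1a1 was 383, 1173, 762, 518 and 884, with 1 array above the lowest 2 old controls, and Col1a1 (-1.24, adjusted p = 0.0772) and Col1a2 (-0.67, adjusted p = 0.0640) did not pass. The direct difference between the diets was -0.81 (adjusted p = 0.486) for Col1a1 and -0.02 (adjusted p = 0.979) for Col1a2, and neither passed. A dimmer probe set of Col1a1 gave -0.52 with CR and did not pass, whereas a second one of Col1a2 gave -0.89 and was called among all probe sets. With the mean of all its probe sets Col1a2 gave -0.54 with CR (adjusted p = 0.143), and its call ended without any 1 of 6 of the 20 muscle arrays, old control replicates 1, 3 and 5 and CR replicates 1, 2 and 5 (adjusted p up to 0.111).

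**Figure D2:**
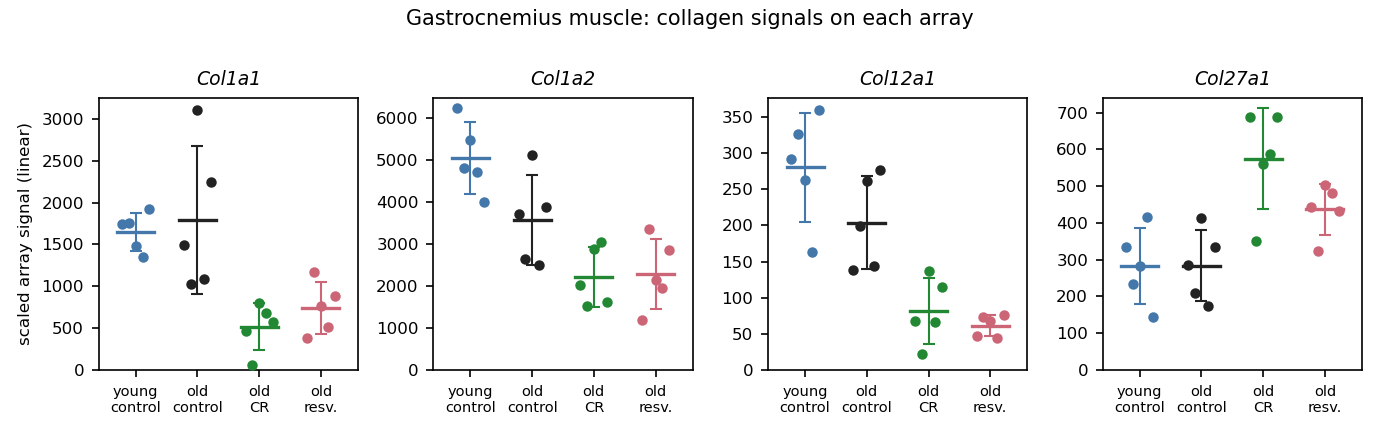
Signal (linear, vertical axis) of 4 collagen genes in gastrocnemius muscle, with each point 1 array (5 per group), the line the group mean and the bar its SD, over the young controls and the 3 old groups (resv. for resveratrol). Col1a1 averages 1790 in old controls and 518 in CR muscles, and Col12a1 averages 204 in old controls and 61.6 in resveratrol muscles.

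Col12a1 fell with both diets in muscle. Its signals were 138, 199, 261, 144 and 277 in old control, 67.9, 21.5, 138, 66.0 and 115 in CR and 47.6, 73.3, 67.2, 43.8 and 75.9 in resveratrol muscles. Neither diet overlapped the controls, though the highest CR array and the lowest control lay side by side. The changes were -1.51 ± 0.39 (SE, adjusted p = 0.00653) with CR and -1.70 ± 0.39 (SE, adjusted p = 0.00435) with resveratrol, and the resveratrol mean lay below the limit of 69.3 for testing. A second probe set of Col12a1, with a mean signal of 138, gave 1.58 with CR and was called the opposite way, so the direction of this gene is uncertain. The 2 genes free of overlap and lower with CR were Col1a1 and Col12a1, beside 8.81% of all genes, and with resveratrol it was Col12a1, beside 9.55%. Col16a1 lay higher without overlap with resveratrol (0.53, adjusted p = 0.144, not called), beside 8.42%. Col12a1 was the 1 collagen of 33 called with resveratrol, beside 18.7% of all genes (9.26% lower).

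In muscle 4 genes rose with CR. Col27a1, a fibrillar chain best known from cartilage, gave 287, 209, 413, 174 and 336 in old control and 689, 352, 559.7, 587 and 687 in CR muscles. The groups overlapped in 1 CR array, and the change was 1.05 ± 0.26 (SE, adjusted p = 0.00528), with 0.68 (adjusted p = 0.0775) for resveratrol. Col8a1 rose from 304 ± 66.6 to 464 ± 114 (0.60, adjusted p = 0.0221), Col11a2, a minor fibrillar chain, from 179 ± 48.0 to 302 ± 66.7 (0.77, adjusted p = 0.0352) and Col22a1, a collagen of the junction between muscle and tendon, from 99.7 ± 49.8 to 175 ± 48.8 (0.92, adjusted p = 0.0497). For Col22a1, 2 other probe sets were called lower (-1.33 and -1.02), so its direction is uncertain as well. A second probe set of Col8a1 gave -0.06 with CR, and with the mean of all its probe sets Col8a1 was at -0.0875 (adjusted p = 0.855), so its rise rests on the brightest probe set. The call of Col8a1 ended without old control replicate 4 or 5 or CR replicate 2 or 3 (adjusted p up to 0.0687), that of Col11a2 without any 1 of 7 arrays (up to 0.0899) and that of Col22a1 without any 1 of 14 (up to 0.148). The other chains of types III, V, IV, XV and VI named in every tissue lay below 0 and did not pass: Col3a1 -0.80 (adjusted p = 0.0505), Col5a1 -0.43 (adjusted p = 0.155), Col5a2 -0.52 (adjusted p = 0.0657), Col4a1 -0.27 (adjusted p = 0.363), Col4a2 -0.46 (adjusted p = 0.0888), Col15a1 -0.46 (adjusted p = 0.118), Col6a1 -0.26 (adjusted p = 0.404), Col6a2 -0.32 (adjusted p = 0.281) and Col6a3 -0.48 (adjusted p = 0.0505). Col18a1 was at 0.06 (adjusted p = 0.879). With resveratrol these genes gave between -0.60 for Col3a1 and -0.08 for Col18a1, and none passed.

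The median log2 change of the fibrillar genes in muscle was -0.47 with CR and -0.29 with resveratrol, against 0.10 and 0.07 for all genes. It was -0.15 with either diet for basement membrane genes, and 0.12 and -0.10 for the others. The CR count of 7 was 4 without old control replicate 5 or without CR replicate 2, 3 or 5. Without both outlying muscle arrays Col1a2, Col11a2 and Col22a1 were not called with CR, and Col8a2 fell (-1.43, adjusted p = 0.0370). The resveratrol count of 1 was 2 without young control replicate 5 or old control replicate 3 or 4, and 4 without CR replicate 2 or resveratrol replicate 2. Between the diets no collagen was called, beside 0.561% of all genes, with 3 at an unadjusted p under 0.05 in limma, and 1 was called without CR replicate 2. Endothelial markers in muscle fell for 5 of 11 genes with either diet and rose for 1 with CR, with sums of 6314 to 9250 in old control, 4200 to 7025 in CR and 5602 to 6610 in resveratrol muscles, and fibroblast markers rose for 1 of 9 and fell for none with either. Mural and smooth muscle markers fell for 3 of 8 and rose for 1 with CR and fell for 4 with resveratrol, with Myh11, the smooth muscle myosin, at -1.26 and -1.24. Their sums ran from 32158 to 38478 in old control, 24286 to 30762 in CR and 23112 to 26032 in resveratrol muscles, without overlap between controls and either diet. Macrophage markers rose for 3 of 7 with either diet, with sums of 5446 to 7132 in old control, 6682 to 12294 in CR and 7142 to 14732 in resveratrol muscles. Of 9 tendon and cartilage genes, Acan (1.12) rose and Chad (-1.50) and Tnmd (-0.73) fell with CR. With resveratrol only Tnmd (-1.03) was called. Shares called with CR and resveratrol were 54.5% and 45.5% for endothelial markers and 11.1% and 11.1% for fibroblast markers. They were 50% and 50% for mural and smooth muscle markers and 42.9% and 42.9% for macrophage markers. For tendon and cartilage markers they were 33.3% and 11.1%, beside 31.2% and 18.7% of all genes. The part of these markers in the result was not tested. The mean log2 signal of spiked-in bacterial RNAs was 6.55 in old control, 9.63 in CR and 9.68 in resveratrol muscles, every diet array above every old control array, and its part in the result was not tested.

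In neocortex no collagen was called with age, beside 1.46% of all genes, and without young control replicate 1 there were 2. In limma 6 of 33 had an unadjusted p under 0.05. The median log2 change was 0.08, against 0.02 for all genes, with Col4a1 at -0.14 (adjusted p = 0.682), Col4a2 at 0.01 (adjusted p = 0.990), Col6a1 at 0.55 (adjusted p = 0.169) and Col5a2 at 0.66 (adjusted p = 0.212).

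Every collagen called in neocortex on either diet was lower. With CR 7 of 33 genes fell and none rose, beside 30.6% of all genes called (17.5% lower and 13.1% higher). With resveratrol 12 fell and none rose, beside 26.2% of all genes (13.9% lower and 12.3% higher). The falls are 21.2% of the collagens with CR, near the 17.5% of all genes, and 36.4% with resveratrol, above the 13.9% of all genes. Of 33 genes, 26 lay below 0 with CR and 26 with resveratrol, and the medians were -0.35 and -0.45, against -0.03 and -0.01 for all genes. By class the medians were -0.45, -0.50 and -0.33 for fibrillar, basement membrane and other genes with CR and -0.52, -0.54 and -0.41 with resveratrol. The 2 comparisons share the old controls. The mean log2 signal of spiked-in bacterial RNAs was 8.40 in old control, 8.83 in CR and 9.54 in resveratrol neocortex. Every resveratrol array lay above every old control array, while CR arrays overlapped the old controls. The part of this difference in the result was not tested.

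The type IV pair fell here too. Col4a2 gave 708, 846, 672, 990.1 and 1046 in old control, 607, 483, 461, 548 and 425 in CR and 440.2, 400.3, 471, 412 and 356 in resveratrol neocortex. Every array of either diet lay below every old control and below every young control (802, 907, 787, 1038 and 686). The changes were -0.75 ± 0.13 (SE, adjusted p = 0.000151) with CR and -1.02 ± 0.13 (SE, adjusted p = 6.76e-06) with resveratrol. Col4a1 gave 1079, 1015, 909, 1355 and 1572 in old control, 819, 1021, 799, 1089.7 and 914 in CR and 776, 752, 778, 746 and 591 in resveratrol neocortex. Every resveratrol array lay below every old control and below every CR array, and the gene fell by 0.68 (adjusted p = 0.000413), with -0.33 (adjusted p = 0.0527) for CR. A second probe set of Col4a1 gave -0.74 with CR and -0.73 with resveratrol, both called among all probe sets. In RefSeq on GRCm38.p6 the starts of Col4a2 on the plus strand (11312805 of chromosome 8) and Col4a1 on the minus strand (11312826) lie 21 bases apart, so the genes of the pair run away from one another from almost the same place.

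**Figure D3:**
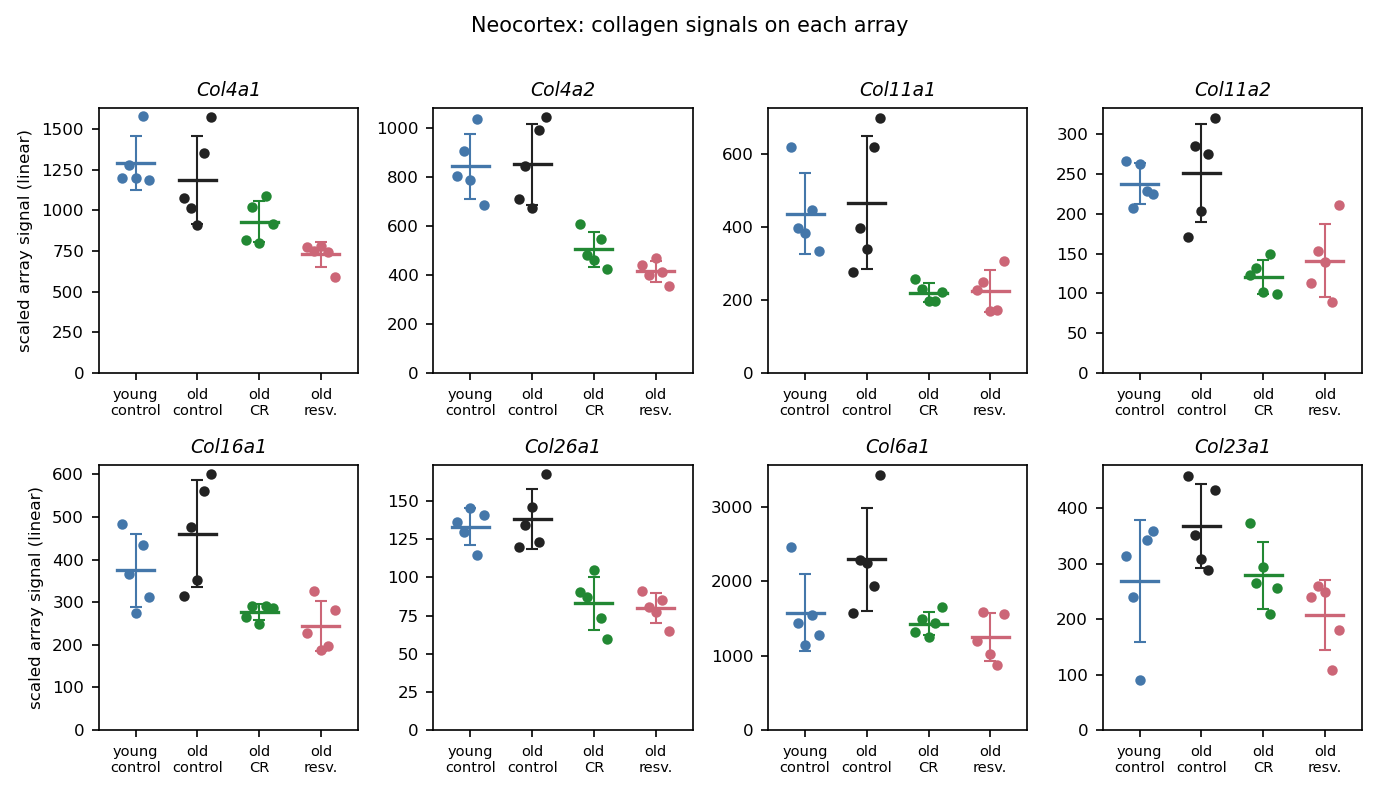
Signal (linear, vertical axis) of 8 collagen genes in neocortex, with each point 1 array (5 per group), the line the group mean and the bar its SD, over the young controls and the 3 old groups (resv. for resveratrol). Col4a2 averages 852 in old controls, 505 in CR and 416 in resveratrol neocortex.

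Minor fibrillar and fibril-associated types made up most of the other falls. Col11a1, a chain that starts fibrils of cartilage and is also found in brain, gave 279, 399, 342, 620.0 and 700.1 in old control, 257, 230.3, 196, 199 and 222 in CR and 226, 249, 169.6, 173 and 308 in resveratrol neocortex. The CR arrays lay below all controls, 1 resveratrol array did not, and the changes were -1.001 ± 0.22 (SE, adjusted p = 0.00112) and -1.002 ± 0.22 (SE, adjusted p = 0.00129). Its partner Col11a2 went from 251 ± 62.1 to 121 ± 21.1 with CR (-1.04, adjusted p = 0.000444) and to 141 ± 46.2 with resveratrol (-0.85, adjusted p = 0.00283). Col16a1, a fibril-associated collagen, fell from 461 ± 125 to 276 ± 19.2 (-0.69, adjusted p = 0.00561) and 244 ± 58.7 (-0.90, adjusted p = 0.000742). Col26a1 fell from 138 ± 19.5 to 83.1 ± 17.4 (-0.75, adjusted p = 0.00223) and 79.8 ± 9.83 (-0.79, adjusted p = 0.00164), with no diet array above any control. Col6a1 gave 1571, 2288, 2245, 1941 and 3429.5 in old controls, with replicate 5 well above the others. It averaged 1432 ± 155 with CR (-0.64, adjusted p = 0.0154) and 1248 ± 319 with resveratrol (-0.87, adjusted p = 0.00189). Without that old control array the CR value of Col6a1 was -0.48 (adjusted p = 0.0581), and the call ended.

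Col27a1 fell with CR (-0.45, adjusted p = 0.0192), and its value with resveratrol was -0.35 (adjusted p = 0.0729). Besides Col4a1, 5 genes passed with resveratrol and not with CR. The largest fitted fall was that of Col9a3, a chain of type IX collagen, at -1.78 (adjusted p = 0.0268), but another probe set of Col9a3 gave 0.25, and with the mean of its probe sets Col9a3 gave -0.18 (adjusted p = 0.806). Its partner Col9a2 gave -0.74 (adjusted p = 0.0455), the transmembrane collagen Col23a1 -0.87 (adjusted p = 0.0292), the minor fibrillar chain Col5a3 -0.65 (adjusted p = 0.00541) and Col1a2 -0.52 (adjusted p = 0.0311). The CR values of these genes were -1.40 (adjusted p = 0.0748), -0.63 (adjusted p = 0.0839), -0.40 (adjusted p = 0.320), -0.27 (adjusted p = 0.226) and -0.08 (adjusted p = 0.776), none of which passed. Of the chains to be named in each tissue, Col3a1 (-0.11, adjusted p = 0.777, with CR and -0.14, adjusted p = 0.739, with resveratrol), Col5a1 (0.25, adjusted p = 0.208 and 0.06, adjusted p = 0.821), Col5a2 (-0.54, adjusted p = 0.114 and -0.65, adjusted p = 0.0618), Col6a3 (-0.43, adjusted p = 0.144 and -0.55, adjusted p = 0.0650) and Col15a1 (-0.67, adjusted p = 0.0506 and -0.65, adjusted p = 0.0644) did not pass. Of the 20 neocortex arrays, the call of Col27a1 ended without old control replicate 4 or 5 or CR replicate 3 (adjusted p up to 0.0593). With resveratrol the call of Col1a2 ended without old control replicate 1 or 2 or resveratrol replicate 1 or 5 (up to 0.106), that of Col23a1 without old control replicate 1 or 5 or resveratrol replicate 4 or 5 (up to 0.103), that of Col9a3 without old control replicate 2, 4 or 5 or resveratrol replicate 4 or 5 (up to 0.10036) and that of Col9a2 without any 1 of 12 arrays (up to 0.0919). With the mean of all probe sets the CR call of Col27a1 (adjusted p = 0.0940) and the resveratrol call of Col11a1 (adjusted p = 0.0504) were lost. A dimmer probe set of Col5a1 was called lower with resveratrol (-1.47). Col18a1 lay at 98.6 ± 64.1 in old controls, near the limit for testing, with -0.28 (adjusted p = 0.820) for CR and 0.59 (adjusted p = 0.631) for resveratrol.

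Between the diets in neocortex 1 of 33 collagens was called, beside 9.28% of all genes (3.66% higher in CR). Col6a2 gave 1171, 1358, 963, 952 and 1094 in CR and 707, 891, 835, 472 and 715 in resveratrol neocortex. The groups did not overlap, the difference was 0.63 ± 0.18 (SE, adjusted p = 0.0285), and against old controls (896 ± 127) neither diet passed. A second probe set of Col6a2 gave -0.44 with CR and -0.70 with resveratrol, both called among all probe sets, so the probe sets disagree on CR (0.30 in the brighter). Without CR replicate 1 or 2 or resveratrol replicate 4 the gene was not called and the count was 0. The groups did not overlap for 7 collagens with CR (beside 11.5% of all genes lower without overlap), for 6 with resveratrol (9.84%) and for 3 between the diets, all higher in CR (3.35%). Endothelial markers in neocortex summed to 2797 to 3407 in old control, 2432 to 3015 in CR and 2890 to 4912 in resveratrol arrays, and fell for 3 of 10 genes with CR and 1 with resveratrol, where 1 rose. Mural cell markers fell for 2 of 8 with either diet, meningeal markers rose for 1 of 9 with CR and fell for 1 with resveratrol, macrophage markers rose for 2 of 6 with resveratrol, and tendon and cartilage markers rose for 2 of 5 with CR, with sums of 878 to 1155 in old control and 1261 to 1596 in CR neocortex. Of 6 fibroblast markers 3 were called with CR, Lum (0.84) and Gsn (0.32) higher and Thy1 (-0.46) lower. With resveratrol 2 were called, Gsn (0.31) higher and Thy1 (-0.40) lower. Shares called with CR and resveratrol were 50% and 33.3% for fibroblast markers. They were 30% and 20% for endothelial markers and 25% and 25% for mural cell markers. They were 11.1% and 11.1% for meningeal markers and 0% and 33.3% for macrophage markers. For tendon and cartilage markers they were 40% and 0%, beside 30.6% and 26.2% of all genes. The part of these markers in the collagen result was not tested.

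**Figure D4:**
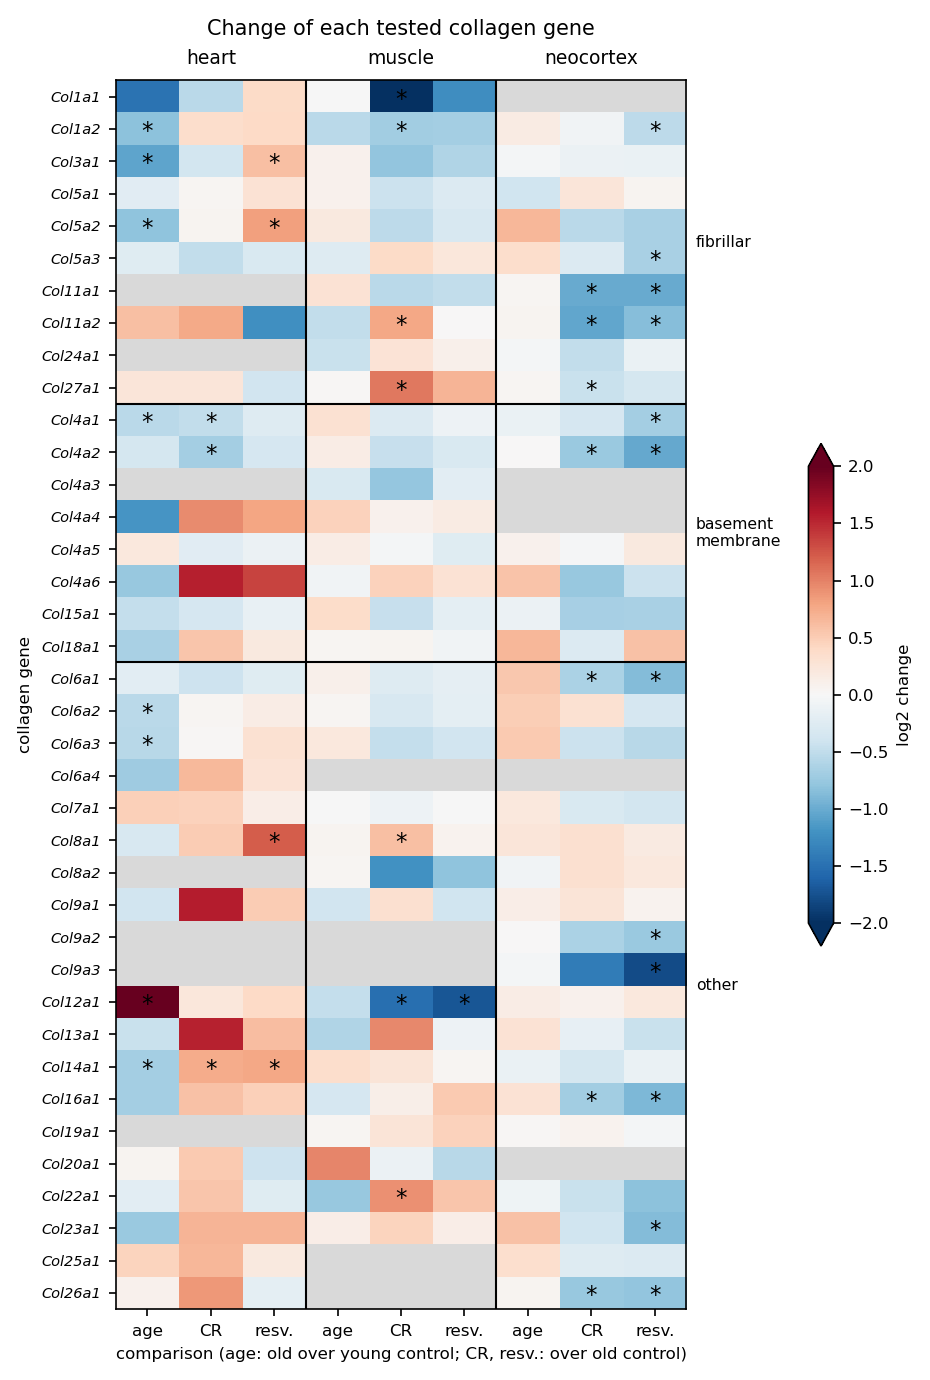
Log2 change of each tested collagen gene (lines of the grid, by class) in 3 tissues for age, CR and resveratrol (columns), coloured from -2 to 2, with an asterisk for an adjusted p under 0.05 and grey for genes not tested in that tissue. Of the 3 age columns only that of heart holds asterisks (8 genes), and the neocortex diet columns hold 7 and 12, all for lower signals.

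**Figure D5:**
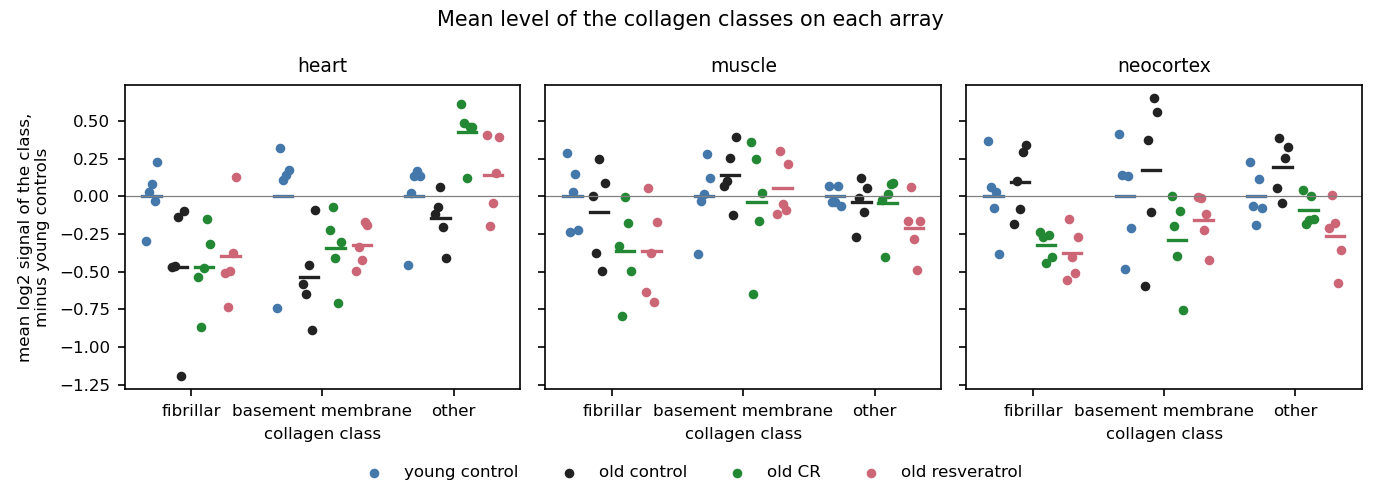
Mean log2 signal of the tested collagen genes of each class on every array, as a difference from the young controls of the same tissue (vertical axis, log2), with each point 1 array and the line the group mean. In heart the CR arrays lie between 0.12 and 0.61 for the other class and the old controls between -0.41 and 0.06.

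Taking each array as a whole, the mean log2 signal of all tested collagens, set against the young controls, was -0.32 ± 0.18 (SD, n = 5) in old control hearts, 0.02 ± 0.11 in CR hearts and -0.10 ± 0.21 in resveratrol hearts. For the fibrillar class it was -0.47 in old control, -0.47 in CR and -0.40 in resveratrol hearts, so the fibrillar means of the 3 old groups lay within 1 SD of one another. Of the 3 classes in heart, only in the other class did CR arrays, from 0.12 to 0.61, lie wholly above old controls, from -0.41 to 0.06. Of the 16 genes of that class 1 was called with CR. The median change over all heart collagens with CR, 0.46, was 0.0335 with the filter at the 60th percentile, so it depends on dim genes. In neocortex the mean over all collagens was 0.16 ± 0.24 in old control, -0.19 ± 0.12 in CR and -0.27 ± 0.16 in resveratrol arrays, and for fibrillar genes every CR array lay at -0.24 or lower, below every old control.

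Whether a change differed between tissues was tested for the genes measurable in both. With age, 5 of 28 collagens differed between heart and muscle, beside 6.73% of all genes, namely Col3a1 (-1.13), Col5a2 (-0.997), Col4a1 (-0.84), Col14a1 (-1.04) and Col12a1 (2.53), where each value is the log2 change in heart minus that in muscle. Between heart and neocortex 4 of 27 did, beside 4.54%, namely Col5a2 (-1.46), Col1a2 (-0.99), Col6a3 (-1.07) and Col6a2 (-1.02), and between muscle and neocortex 0 of 29, beside 0.445%, with 1 at an unadjusted p under 0.05 in limma. The 5 became 2 without heart old control replicate 4, muscle young control replicate 3 or muscle old control replicate 1, 3 or 5, and 3 without heart young control replicate 2, 4 or 5, heart old control replicate 1 or 2 or muscle young control replicate 2 or 5. The 4 became 2 without heart young control replicate 5 or neocortex young control replicate 2 or 5, and 1 without neocortex young control replicate 3.

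With resveratrol, 7 of 28 collagens differed between heart and muscle, beside 20.8% of all genes, and all but Col27a1 were higher in heart, among them Col3a1 (1.202), Col5a2 (1.13), Col1a2 (1.08) and Col8a1 (1.14). Between heart and neocortex 5 of 27 differed, beside 6.94%, all higher in heart, and between muscle and neocortex 3 of 29, beside 14.3%, with Col4a2 at 0.72 and Col12a1 at -1.91. The values of Col12a1 with muscle as a side rest on its brightest probe set, and with CR another called probe set of Col12a1 in muscle went the opposite way. The 5 became 3 without heart old control replicate 4, heart resveratrol replicate 1 or neocortex resveratrol replicate 5, and 8 without heart resveratrol replicate 3. With CR the counts were 3 of 28 between heart and muscle (25.2% of all genes), 2 of 27 between heart and neocortex (10.5%) and 3 of 29 between muscle and neocortex (22.2%). Without heart old control replicate 4 the first 2 of these became 5 each. The first became 1 without heart old control replicate 2 or CR replicate 1, and the last became 1 without muscle old control replicate 2 or neocortex CR replicate 5. For Col4a2, which fell with CR in heart and neocortex, the difference between those changes was 0.07 ± 0.24 (SE, adjusted p = 0.887), which did not pass.

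Genes that build and fold collagen were read from the same fits. Of 25 genes of collagen synthesis and processing on the array, 23 were tested in heart and 22 in each other tissue. With age 2 rose in heart, P4ha2 (0.50) and P4hb (0.33), subunits of the prolyl 4-hydroxylase that stabilises the helix. Those 2 are 8.7% of the list, below the 10.8% of all genes called with age in heart (7.05% higher). None were called with age in muscle or neocortex, beside 0.429% and 1.46% of all genes. With CR 8 fell and 2 rose in heart, 5 fell and 2 rose in muscle, and 9 fell and 1 rose in neocortex. These are 43.5% of the list in heart (22.0% of all genes), 31.8% in muscle (31.2%) and 45.5% in neocortex (30.6%). With resveratrol 3 fell and 2 rose in heart, 2 fell in muscle and 6 fell in neocortex, or 21.7% (17.5% of all genes), 9.09% (18.7%) and 27.3% (26.2%).

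Serpinh1, which encodes HSP47, a chaperone specific to procollagen, had the largest fall of this list with CR in each tissue. In heart it went from 5868 ± 722 in old control to 1646 ± 254 in CR (-1.84, adjusted p = 2.70e-08) and 2954 ± 468 in resveratrol mice (-0.996, adjusted p = 0.000127). In muscle it went from 1363 ± 441 to 278 ± 86.0 (-2.28, adjusted p = 1.16e-05) and 405 ± 114 (-1.72, adjusted p = 0.000399). In neocortex it fell from 221 ± 31.7 to 129 ± 20.6 with CR (-0.78, adjusted p = 0.000470), and with resveratrol it was 194 ± 35.1 (-0.20, adjusted p = 0.364). In heart this stood beside a rise of Col3a1 and Col5a2 with resveratrol. Other heart genes were P4ha1 (-1.22 with CR), P4ha2 (-0.99 and -0.62 with resveratrol), Pcolce2 (0.95 and 0.87) and Pcolce (0.78 with resveratrol), the last 2 enhancers of procollagen trimming. In muscle P3h2, a prolyl 3-hydroxylase, gave -1.66, P4ha1 -1.01 and Mia3, which helps procollagen leave the endoplasmic reticulum, -0.67 with CR. In neocortex the trimming enzyme Bmp1 gave -0.63 with CR and -0.86 with resveratrol, the lysyl hydroxylase Plod3 -0.62 and -0.67, and Pcolce2 rose by 1.03 with CR.

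Among 9 collagen receptors tested in heart, Itgb1, the beta 1 integrin chain, changed by -0.64 with age, 0.94 with CR and 0.69 with resveratrol, and Ddr1, a collagen-binding receptor kinase, fell by 0.79 with CR. Of the 9 receptors 1 was called with age, 2 with CR and 1 with resveratrol. These are 11.1%, 22.2% and 11.1%, beside 10.8%, 22.0% and 17.5% of all genes. In muscle Itgb1 gave -1.97 and -1.96, and Mrc2, a receptor that takes up collagen fragments, -2.65 and -2.11, with 3 of 8 receptors lower with CR and 2 with resveratrol, beside 13.6% and 9.26% of all genes lower. In neocortex 0 of 5 receptors were called with either diet, beside 30.6% of all genes with CR and 26.2% with resveratrol. Laminins and other basement membrane genes fell for 2 of 13 in heart with CR (Lamb2 -0.79, Agrn -0.55) and for 3 of 10 in neocortex with either diet (Agrn -0.58 and -0.70, Lamc1 -0.52 and -0.44). In muscle Lamc1 gave -1.49 with CR and -1.34 with resveratrol. Over these basement membrane genes 15.4% were called with CR and 23.1% with resveratrol in heart (22.0% and 17.5% of all genes), 30.8% and 7.69% in muscle (31.2% and 18.7%) and 30.0% with either in neocortex (30.6% and 26.2%).

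Of the TGF-beta list, genes of a growth factor pathway known to raise collagen transcription, 2 of 12 fell with age in heart, Thbs1 (-2.15), an activator of TGF-beta, and Acta2 (-0.85). With CR 5 rose and 1 fell, with Thbs1 at 2.34 and Tgfb1, the ligand, at -0.71, and with resveratrol 4 rose and 1 fell, with Thbs1 at 1.93, Postn at 1.07 and Tgfb1 at -0.54. In muscle 1 of 13 rose and 4 fell with CR and 2 fell with resveratrol, with Thbs1 at -0.90 and -1.11. In neocortex 2 of 12 fell and 1 rose with CR and 1 fell and 1 rose with resveratrol, with Tgfb1 at -1.35 and -0.96. Of the TGF-beta list 16.7% were called with age in heart, beside 10.8% of all genes. With CR and resveratrol 50% and 41.7% were called in heart (22.0% and 17.5% of all genes), 38.5% and 15.4% in muscle (31.2% and 18.7%) and 25.0% and 16.7% in neocortex (30.6% and 26.2%).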

How the data were processed

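The arrays were GeneChip Mouse Genome 430 2.0. The deposited intensity values are linear signals that the authors made with GCOS 1.2 and scaled to a 2% trimmed mean of about 500 per array, and scaling removes differences in total RNA. Genes came from the platform annotation. Of 45101 probe sets, 64 controls, 932 with several symbols and 9160 with none were left out. Here, arrays were rescaled to the trimmed mean of their tissue, signals were floored at 1 and turned to log2. The brightest probe set over 60 arrays represented a gene. The 4 groups of a tissue were fitted with limma 3.58.1 (lmFit, eBayes with trend) in R 4.3.3, two-sided. Age is old minus young control, and each diet was set against old controls and against the other diet. Tissue differences came from 1 model of all 60 arrays, which treats tissues as separate mice. Classes and lists (138 of 151 entries on the array) were chosen with earlier results of these data known. Called collagens, 12 major chains and up to 4 called members of each other list were named. On simulated data with 13285 genes, modelled on heart and age, 55% of genes changed by 1 and 79% of genes changed by 2 on the log2 scale were recovered. Replicate correlations within a group ran from 0.87 to 0.98. No 2 arrays were identical. Replicate numbers did not pair arrays (mean residual correlation of same-numbered arrays 0.0050 in heart, 0.0042 in muscle and 0.013 in neocortex). Figures used Python 3.11.15 and matplotlib 3.10.9. Other scalings, filters, probe set rules, the methods' t-test, a replicate block and leaving out arrays were tried.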

Additional observations from a re-analysis of the deposited data

Results flagged for a closer look

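In 7 of 124 groups of 5 signals 1 array lay far from the other 4 by a limit set for groups of 5, and chance gives about 1 in 20 such groups. In heart the lowest array of Col12a1 was old control replicate 2 (45.9, nearest 82.3) and CR replicate 3 (26.1, nearest 103), which surrounds the rise of that gene with age. In muscle Col11a2 was low in resveratrol replicate 4 (79.7, nearest 192) and Col1a1 in CR replicate 2 (65.8, nearest 464). Without that array Col1a1 still fell with CR. In neocortex Col23a1 was low in young control replicate 3 (90.0, nearest 241), and Col4a1 was high in young control replicate 4 (1578, nearest 1281) and low in resveratrol replicate 5 (591, nearest 746). In 5 of 48 groups of mean levels an array lay apart. Heart young control replicate 1 was low over all collagens (-0.48, nearest 0.09), basement membrane genes (-0.74, nearest 0.11) and others (-0.46, nearest 0.02). Muscle CR replicate 2 was low over all collagens (-0.58, nearest -0.11) and others (-0.40, nearest -0.02).

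In 32 cases the change of a collagen differed between tissues in limma's test of the difference itself. Each value is the log2 change in the first tissue minus that in the second. Heart against muscle gave, with age, Col12a1 2.53, Col14a1 -1.04, Col3a1 -1.13, Col4a1 -0.84 and Col5a2 -0.997. With CR it gave Col12a1 1.74, Col1a2 1.05 and Col5a3 -0.89. With resveratrol it gave Col12a1 2.10, Col14a1 0.73, Col1a2 1.08, Col27a1 -1.07, Col3a1 1.202, Col5a2 1.13 and Col8a1 1.14.

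Heart against neocortex gave, with age, Col1a2 -0.99, Col5a2 -1.46, Col6a2 -1.02 and Col6a3 -1.07. With CR it gave Col14a1 1.10 and Col16a1 1.28, and with resveratrol Col14a1 0.90, Col16a1 1.38, Col23a1 1.56, Col5a2 1.47 and Col8a1 1.03. Muscle against neocortex gave, with CR, Col11a2 1.80, Col12a1 -1.59 and Col27a1 1.499, and with resveratrol Col12a1 -1.91, Col16a1 1.43 and Col4a2 0.72. The tissues of 1 mouse cannot be matched from the labels, so the model treats all arrays as separate mice.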

How the results depend on the processing

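Two-group means rest on 5 arrays, background is not known for single probe sets, and dim genes near the limit for testing are the least certain. The counts of called collagens moved as follows. Heart with age (8) gave 2 and 3 with the methods' t-test of log2 and of unlogged signal, 5 without the trend, 4 with only the 2 groups, 5 with the mean of all probe sets and 4 to 9 leaving out single arrays. Heart with CR (3) gave 6 with only the 2 groups, 5 with every probe set on its own, 11 without the outlying arrays and 3 to 8 leaving out single arrays. Heart with resveratrol (4) gave 2 with each t-test at either threshold and 7 without the outlying arrays. Heart CR against resveratrol (2) gave 0 with the unlogged t-test and 1 with the mean. Muscle with age (0) gave 1 with each t-test at 0.01. Muscle with CR (7) gave 4 after quantile normalization, 2 and 3 with the t-tests on log2 and unlogged signal, 2 with each at 0.01, and 4 to 9 leaving out arrays. Muscle with resveratrol (1) gave 2 without a filter, 0 at the 60th percentile, 3 with only the 2 groups, 0 with the mean, 3 with every probe set and 1 to 4 leaving out arrays. Muscle CR against resveratrol (0) gave 1 with the mean and 0 to 1 leaving out arrays. Neocortex with age (0) gave 0 to 2 leaving out arrays. Neocortex with resveratrol (12) gave 7 at the 60th percentile and 7 with the unlogged t-test at 0.01. Neocortex CR against resveratrol (1) gave 2 without a filter, 0 with either t-test or without the trend, 3 with every probe set and 0 to 1 leaving out arrays. The median change in heart with CR (0.46) was 0.22 after quantile normalization, 0.0335 at the 60th percentile and 0.19 with the mean. Of the counts of tissue differences, heart against muscle with age (5) gave 3 without a filter, 3 without the trend, 1 with the mean, 3 without the outlying arrays and 2 to 5 leaving out arrays. With CR (3) it gave 1 with the mean, 5 with every probe set and 1 to 5, and with resveratrol (7) 3 with the mean. Heart against neocortex with age (4) gave 2 at the 60th percentile and 1 to 5 leaving out arrays. With CR (2) it gave 1 after quantile normalization, 4 with an offset of 16, 1 at the 60th percentile, 1 with the mean, 5 without the outlying arrays and 2 to 5. With resveratrol (5) it gave 3 after quantile normalization, 3 without a filter, 2 at the 60th percentile, 2 with the mean and 3 to 8. Muscle against neocortex with CR (3) gave 1 at the 60th percentile, 5 with every probe set and 1 to 4. With the mean of all probe sets Col22a1 (-0.48) and Col8a1 (-0.0875) in muscle with CR and Col5a1 in neocortex with resveratrol (-0.56) changed sign. In each case the cause was not tested. With the replicate number as a block (replicate block) the heart age count was 7, the neocortex CR count 9 and no count moved by over 1.5 times. Not rescaling the arrays moved none of the 30 counts and medians. The deposited trimmed means already ran only from 500.002 to 500.004, so this alternative hardly altered the signals and could not move them. Calls kept in every alternative that tested the gene included Col3a1 and Col4a1 in heart with age and Col4a2 in heart with CR. They also included Col4a2 in neocortex with either diet, and Col11a2 and Col26a1 in neocortex with CR. Col11a2 and Col26a1 were tested there in 33 and 32 alternatives, against 34 for Col4a2.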

Other observations

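Among the tested collagens of neocortex that are not named with their diet values above are Col25a1 and Col19a1, which are known from neurons. Col25a1 averaged 876 ± 203 in old control, 733 ± 189 in CR and 735 ± 231 in resveratrol neocortex (mean ± SD, n = 5), with log2 changes of -0.26 and -0.28. Col19a1 averaged 914 ± 134, 971 ± 199 and 906 ± 218, with changes of 0.07 and -0.03. Col24a1, a fibrillar chain, averaged 186 ± 76.0, 124 ± 13.4 and 162 ± 33.3, with changes of -0.49 and -0.13. None of these 3 genes passed in limma with either diet.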
